A study of Mus musculus with 2 samples.

Results

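The genes described here are 9 regulators of developmental timing and growth, Lin28a, Lin28b, Hmga2, Igf2bp1, Igf2bp2, Igf2bp3, Trim71, Myc and Mycn, taken from 21938 protein-coding genes of the mouse annotation GENCODE vM21 (GRCm38). They were chosen by name, and no measured value was part of the rule, though earlier results of these data were known at the time. A peak was counted for a gene when its centre lay within 3 kb of any annotated transcription start site (TSS) of the gene, which is called a promoter peak below, or in the gene body and 10 kb upstream of it. This gave 41 of 77596 peaks in the list labelled WT and 48 of 100431 peaks in the list labelled Bmi1 KO.

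The data are ATAC-seq of the organ of Corti, the auditory sensory epithelium of the cochlea, from mice at postnatal day 2. ATAC-seq uses the Tn5 transposase to cut and tag accessible DNA, so a peak marks a stretch where more fragments were recovered than in the local background. The Bmi1 KO mice carried the Bmi1tm1Brn allele, obtained as FVB.129P2-Bmi1tm1Brn/MvlJ and backcrossed to C57BL/6J, in all their cells, and WT littermates came from the same crosses. Tissue of 10 mice was pooled per genotype and 1 library was made from each pool, so no difference was tested against the spread between animals, and genotype and library cannot be told apart. Within each list every peak name starts with the abbreviation of the opposite genotype. Every direction given here therefore rests on GEO's labels.

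LIN28A and LIN28B are RNA-binding proteins of embryonic and progenitor cells that block the maturation of let-7 microRNAs. When LIN28 falls during development, mature let-7 accumulates and represses targets that include the chromatin protein HMGA2, the mRNA-binding IGF2BP proteins, the ubiquitin ligase TRIM71 and MYC family transcription factors. This circuit was first described in the timing of cell fates in the nematode, and in the cochlea it is known for its role in the timing of progenitor cell cycle exit and in the declining ability of supporting cells to make new hair cells. BMI1 is a subunit of Polycomb repressive complex 1, which keeps developmental genes silent.

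The let-7 seed, bases 2 to 8 of the mature microRNA, is shown because its match was found in 7 of these genes. Of the 12 let-7 family genes, 11 were in the RefSeq microRNA table (GRCm38.p6), and all 11 share 1 seed, shown in capitals in these 4 members of the family:
let-7a: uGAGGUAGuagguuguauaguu
let-7b: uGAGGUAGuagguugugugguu
let-7g: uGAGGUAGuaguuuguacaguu
miR-98: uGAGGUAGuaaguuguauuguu

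The reverse complement of the seed, CTACCTC, was counted in the longest annotated 3′ UTR of each gene, a count that does not use the ATAC-seq data. At least 1 match was found in 7 of the 9 genes, against 9.02% of 21022 protein-coding genes with a 3′ UTR. Lin28b, Hmga2, Igf2bp1 and Trim71 each held 4 matches, a number reached by 12 of all genes, these 4 included. Lin28a held 2 matches, and Igf2bp2 and Igf2bp3 held 1 each. Myc and Mycn held no match, in the shortest UTRs of the set (466 and 913 bases). Long UTRs hold more matches by length alone: 25.2% of UTRs of at least 3000 bases had one, as did all 4 of the genes in that range. Per kb, the density was 0.731 matches over the 9 genes and 0.0699 over all genes. The genes were chosen by name and most are known let-7 targets. An excess over all genes was thus built into the choice and is not a result. Of the 20 matches, 13 were followed by an adenine, which is known to favour repression by microRNAs. The first match of 5 of these UTRs is printed as the transcript reads, on the minus strand of GRCm38, with the match in capitals:
Lin28b, chr10:45381022-45381043: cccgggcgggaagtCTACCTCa
Hmga2, chr10:120364224-120364245: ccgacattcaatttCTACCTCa
Igf2bp1, chr11:95961778-95961799: ctgtgcgaagtaaaCTACCTCa
Igf2bp3, chr6:49086787-49086808: gcatttttactcaaCTACCTCa
Trim71, chr9:114512472-114512493: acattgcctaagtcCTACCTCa
A match of these letters is a description and does not show that let-7 binds there in the organ of Corti.

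**Figure D1:**
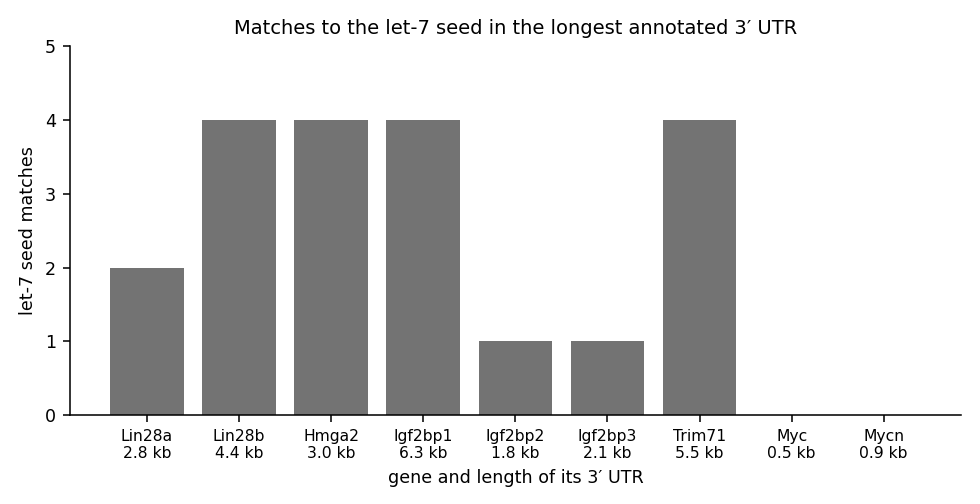
Number of matches to the let-7 seed in the longest annotated 3′ UTR of each of the 9 genes (bars), with the length of that UTR under each name. Lin28b, Hmga2, Igf2bp1 and Trim71 have 4 matches each, and Myc and Mycn have 0.

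The 2 lists differ as a whole, and the values of the 9 genes are read against that. The list labelled Bmi1 KO is 1.29 times as long as the list labelled WT. The background of its library, solved from the deposited values, was 8.04 fragments at its lowest against 6.32, so pileups are not on 1 scale. At that background the smallest pileup of any peak was 13 fragments for WT and 15 for Bmi1 KO, and a site below these values is missing from a list without being shown to be closed. Bmi1 itself (chr2:18677018-18686629) had 1 peak labelled WT and 3 labelled Bmi1 KO, the highest at percentiles 40.1 and 92.0 of their lists. Which part of the gene the allele removes is not given in the sources used here, so these peaks do not check the labels. Promoter peaks were found in both lists for 6 of 6 supporting cell markers and 5 of 6 hair cell markers, beside 53% of all protein-coding genes. Otof, a gene of hair cell synapses, had one labelled Bmi1 KO only. Of 5 markers of blood and macrophages, 3 (Csf1r, Cx3cr1 and Spi1) had a promoter peak labelled WT and none had one labelled Bmi1 KO. Of 5 markers each, one labelled WT only was found for 2 of mesenchyme (Col1a1 and Col1a2) and 1 of neurons (Nefl), and one labelled Bmi1 KO only for 1 of mesenchyme (Pou3f4) and 2 of neurons (Snap25 and Stmn2). The other 2 of mesenchyme and 2 of neurons had one in both lists, and so did 3 of the 5 endothelial markers, with Pecam1 in the list labelled WT only and Tek in the list labelled Bmi1 KO only. The part of such cells in the values below was not tested.

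Over the 9 genes, the 41 peaks labelled WT (95% Poisson interval 29.4 to 55.6) and the 48 labelled Bmi1 KO (35.4 to 63.6) gave a ratio of 1.17 (exact interval 0.756 to 1.82). This interval takes in both 1 and the 1.29 of the whole lists. All intervals given here cover counting error only. The genes held 0.602 peaks per 10 kb labelled WT and 0.705 labelled Bmi1 KO, beside 0.457 and 0.574 over all protein-coding gene regions. Their median percentile by −log10 p was 47.4 labelled WT and 56.0 labelled Bmi1 KO. At a q-value under 0.05 were 20 of 41 peaks labelled WT and 31 of 48 labelled Bmi1 KO, near the 52.4% and 62.8% of all peaks in the lists. A −log10 q of 5 was reached by none of the 41 peaks labelled WT and by 4 of the 48 labelled Bmi1 KO, beside 1.63% and 4.23% of all peaks. These 4 lie in Igf2bp1, Igf2bp2, Igf2bp3 and Trim71. Fold enrichment, the pileup over the local background at the summit, ran from 1.87 to 3.28 labelled WT and from 1.91 to 3.63 labelled Bmi1 KO.

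A peak of the other list was overlapped by at least 1 bp by 15 of the 41 peaks labelled WT, or 36.6% (exact binomial interval 22.1% to 53.1%), beside 24.8% of all peaks labelled WT. In the other direction 14 of the 48 peaks labelled Bmi1 KO overlapped one labelled WT, or 29.2% (17.0% to 44.1%), beside 18.5% of all. Both intervals include the share of the whole list. Without an overlap were 26 and 34 peaks. Introns held 26 and 29 of the peaks, exons 10 and 13, and the 10 kb upstream 5 and 6.

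**Figure D2:**
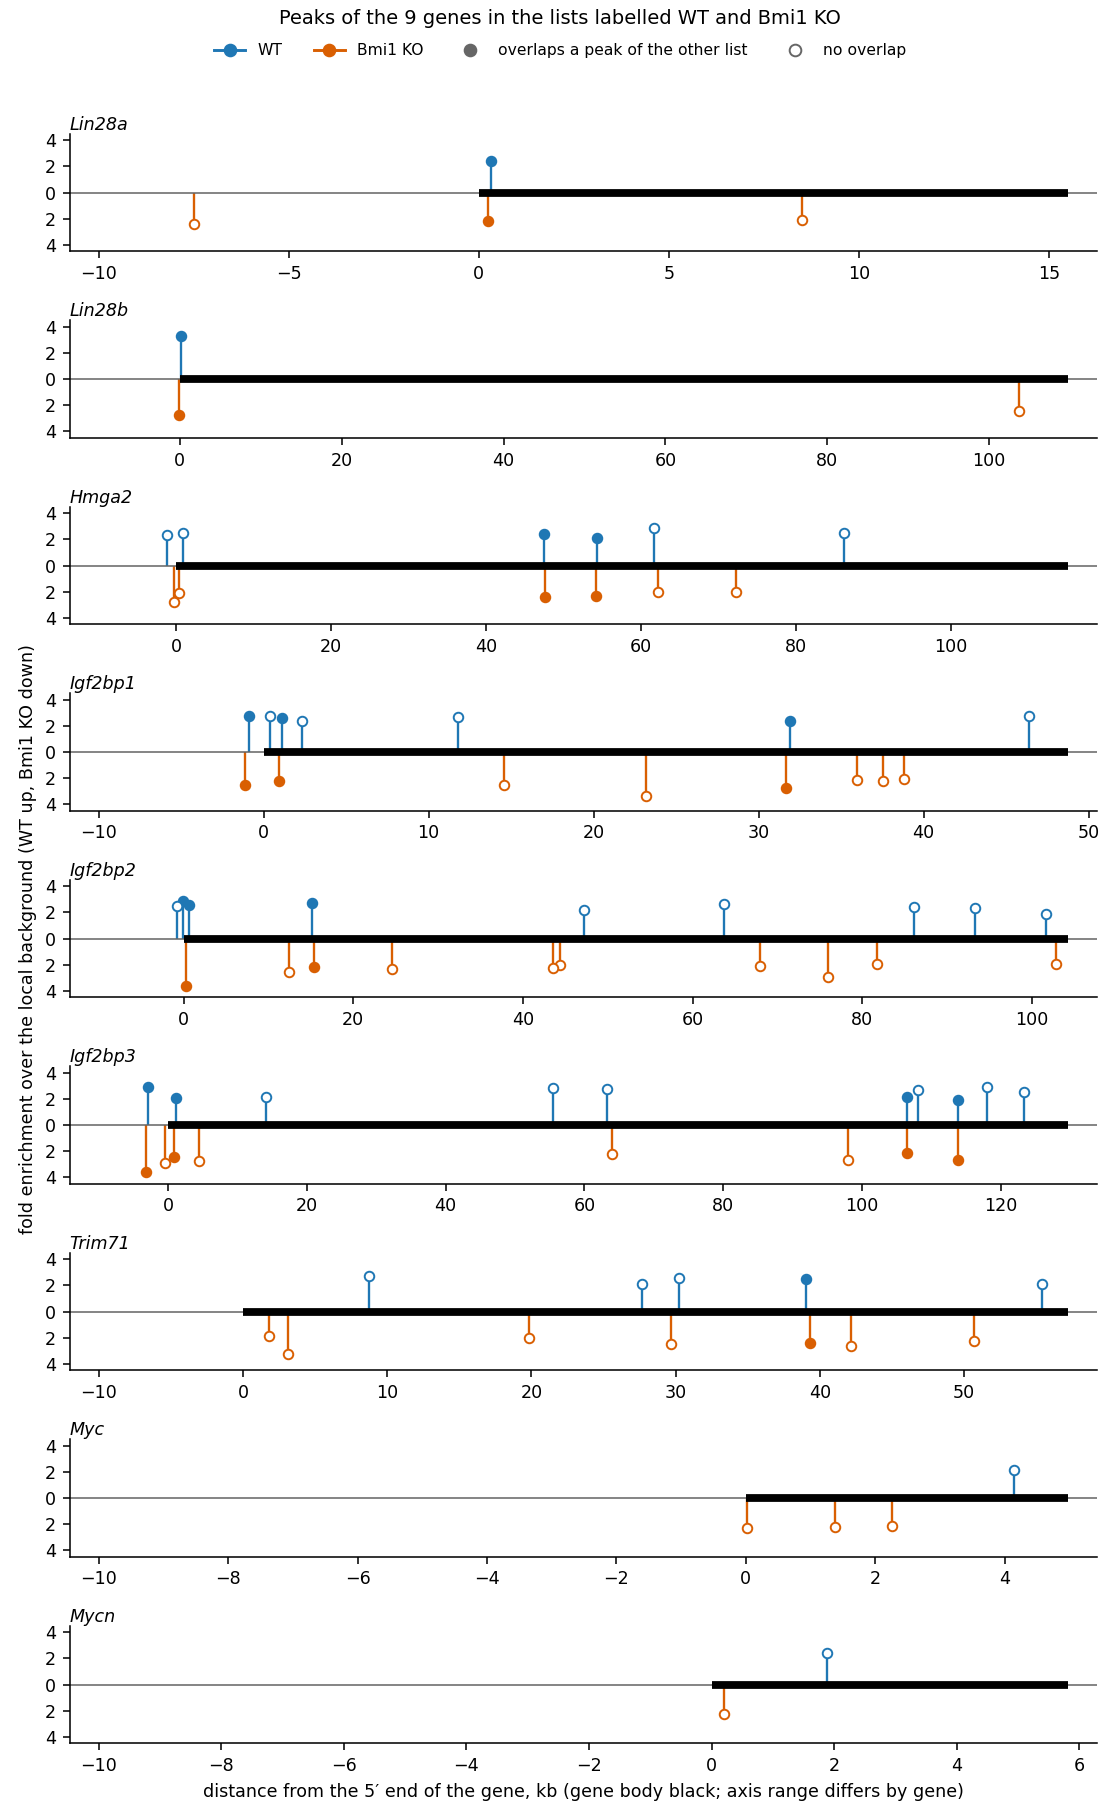
Peaks of each gene by the distance of their centre from the 5′ end of the gene in kb, with fold enrichment upwards for the list labelled WT (blue) and downwards for the list labelled Bmi1 KO (orange). The black bar is the gene body, filled points overlap a peak of the other list and open points do not. Filled points cluster at the 5′ ends of Lin28a, Lin28b, Igf2bp1, Igf2bp2 and Igf2bp3, and Myc and Mycn have open points only.

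A promoter peak was present in both lists for 8 of the 9 genes, beside 53% of all protein-coding genes. Trim71 had one in the list labelled Bmi1 KO only, as did 15.2% of all genes, and none of the 9 had one in the list labelled WT only (6.1% of all genes). In 5 of the 9 genes a promoter peak of each list overlapped, beside 40.4% of all genes. These 5 are Lin28a, Lin28b, Igf2bp1, Igf2bp2 and Igf2bp3. At Lin28a neither of the overlapping peaks had a q-value under 0.05. Hmga2, Myc and Mycn had promoter peaks at different positions in the lists.

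Of the 8 genes with promoter peaks in both lists, the strongest one ranked higher within the list labelled Bmi1 KO in 6, beside 67.5% of all such genes, and lower in Lin28a and Lin28b. Several of the genes have start sites far inside the gene. With the 5′ end of the gene as the only start site, a choice made after seeing the data, 7 of the 9 genes had a peak in both lists (44.6% of all genes), and the one labelled Bmi1 KO ranked higher in 4 of these 7 (68.5% of all). The order of Igf2bp1 turned under this choice, and Myc was left without a peak labelled WT.

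**Figure D3:**
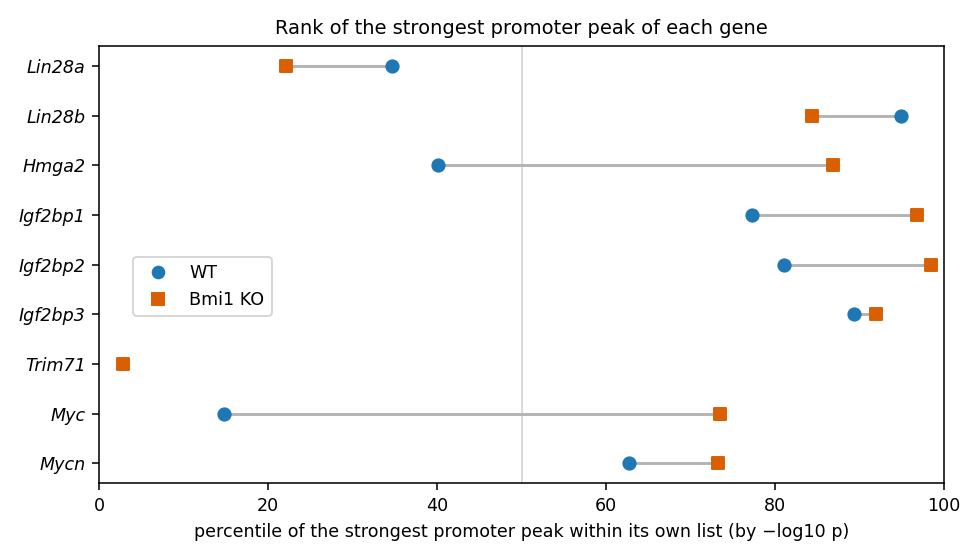
Percentile of the strongest promoter peak of each gene among all peaks of its own list, ranked by −log10 p, in the list labelled WT (blue circles) and labelled Bmi1 KO (orange squares). Lin28b, Igf2bp1, Igf2bp2 and Igf2bp3 lie above the 75th percentile in both lists, and Trim71 has no promoter peak labelled WT.

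Lin28a and Lin28b encode the RNA-binding proteins that hold let-7 back. Lin28a (chr4:134003330-134018841, minus strand) had 1 peak labelled WT and 3 labelled Bmi1 KO. The shared one lies in the first intron, at chr4:134018393-134018673 in the list labelled WT, with a fold enrichment of 2.43 (1.47 to 3.81), and at chr4:134018403-134018775 in the list labelled Bmi1 KO, with 2.15 (1.33 to 3.29). In the list labelled WT its centre is 386 bp from a start site of another annotated gene, Gm13061. Neither had a q-value under 0.05, and they stood at percentiles 34.6 and 22.0 of their lists by −log10 p. Another 2 peaks were found only in the list labelled Bmi1 KO, one 7495 bp upstream of the gene (fold enrichment 2.43) and one in an intron (2.10).

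Lin28b (chr10:45376620-45486395, minus strand) had the strongest single promoter peak of the 9 genes in the list labelled WT. It spans the 5′ end at chr10:45485990-45486570, with a pileup of 23 fragments and a fold enrichment of 3.28 (2.13 to 4.85), at percentile 94.8 with a −log10 q of 3.31. The peak labelled Bmi1 KO at chr10:45486170-45486696 had a pileup of 24 and a fold enrichment of 2.76 (1.81 to 4.06), at percentile 84.3. The peaks overlap by 401 bp with summits 320 bp apart, the summit labelled WT inside the gene and the summit labelled Bmi1 KO before its 5′ end. The gene body of about 110 kb held no other peak labelled WT and 1 intronic peak labelled Bmi1 KO (2.43). The ratio of fold enrichment, Bmi1 KO to WT, was 0.882 (0.437 to 1.82) at Lin28a and 0.843 (0.457 to 1.57) at Lin28b, and both intervals include 1. The curated RefSeq transcript of Lin28b starts farther inside the gene, and with that annotation neither list has a promoter peak for it. The intronic stretch of the peak labelled WT, chr10:45485990-45486226, is shown on the minus strand because it holds the letters CACGTG (in capitals), the E-box that MYC family proteins can bind:
Lin28b: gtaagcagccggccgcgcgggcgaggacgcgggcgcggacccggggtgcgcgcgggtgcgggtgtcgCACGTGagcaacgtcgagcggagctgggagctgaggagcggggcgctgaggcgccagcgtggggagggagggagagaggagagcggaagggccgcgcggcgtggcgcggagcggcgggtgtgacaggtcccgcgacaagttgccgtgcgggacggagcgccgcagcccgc
Its GC content is 77.6%. The letters CACGTG were found within 100 bp of the summit of 2 of 20 promoter peaks labelled WT and 1 of 25 labelled Bmi1 KO, beside 4.93% and 4.99% of all promoter peaks.

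Hmga2 encodes an architectural chromatin protein of embryonic and progenitor cells. The gene (chr10:120361275-120476469, minus strand) had 6 peaks in each list. Around its 5′ end, the 2 peaks labelled WT lie at chr10:120475317-120475772 in the gene and at chr10:120477510-120477721 upstream, with fold enrichments of 2.46 (1.49 to 3.85) and 2.32 (1.39 to 3.68). The 2 peaks labelled Bmi1 KO lie between them, at chr10:120475991-120476270 (2.13, interval 1.33 to 3.27) and at chr10:120476705-120476907 (2.80, interval 1.85 to 4.08). The last of these had a −log10 q of 2.96 and stood at percentile 86.8, against 40.1 for the stronger peak labelled WT. The nearest peaks of different lists were 218 bp apart. Whether they are separate sites or parts of 1 broad open site was not tested.

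Deep in the gene, the lists shared 2 intronic peaks of Hmga2. The one 47496 bp from the 5′ end in the list labelled WT, at chr10:120428630-120429316 and chr10:120428736-120428996, had fold enrichments of 2.38 and 2.44, and its summits were 12 bp apart. The other, at chr10:120422006-120422361 and chr10:120422139-120422432, had 2.14 and 2.32. These were among the most similar values of the set, with ratios of 1.02 (0.531 to 2.07) and 1.08 (0.550 to 2.21). The strongest other peak labelled WT, at chr10:120414671-120414877 (2.87), had no overlap. The peak labelled Bmi1 KO just before the 5′ end, found in that list only, reads on the minus strand:
Hmga2, chr10:120476705-120476907: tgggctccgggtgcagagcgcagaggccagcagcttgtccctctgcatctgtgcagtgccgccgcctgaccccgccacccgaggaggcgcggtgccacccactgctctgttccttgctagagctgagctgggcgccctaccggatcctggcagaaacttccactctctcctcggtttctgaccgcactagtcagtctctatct
It holds neither the E-box letters nor GGGCGG, the GC box of Sp family factors.

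Igf2bp1, Igf2bp2 and Igf2bp3 encode paralogous proteins that bind mRNA, Igf2 mRNA among them, and stabilise it. They held most of the peaks of the set, 26 of the 41 labelled WT and 26 of the 48 labelled Bmi1 KO. Their regions, in this order, span 58.8, 114 and 140 of the 681 kb searched, so length enters these counts. Per 10 kb they held 1.19, 0.787 and 0.716 peaks labelled WT, beside 0.602 over the set. Labelled Bmi1 KO they held 1.36, 0.875 and 0.573, beside 0.705, so Igf2bp3 lay below the set in that list.

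Igf2bp1 (chr11:95957163-96005940, minus strand) had 7 peaks labelled WT and 8 labelled Bmi1 KO, of which 3 in each list were shared. At its 5′ end, the shared upstream peak had a fold enrichment of 2.80 (1.76 to 4.25) at chr11:96006656-96006997 in the list labelled WT and of 2.52 (1.62 to 3.75) at chr11:96006819-96007317 in the list labelled Bmi1 KO, a ratio of 0.899 (0.470 to 1.74). A shared intronic peak near it had 2.63 and 2.18, and a further peak labelled WT at the 5′ end, at chr11:96005463-96005692 (2.73), had no partner. Start sites of the annotated genes Gm29202 and Gm37179 lie within 328 bp of some of these peaks, which can belong to either gene. The peak labelled WT with the highest percentile, 78.3, lies near the 3′ end at chr11:95959347-95959738 (2.78) and covers 1 of the 4 let-7 matches. The strongest peak of the gene was one labelled Bmi1 KO without a partner, at chr11:95982626-95982965 in an intron. It lies 185 bp from the start of a shorter annotated transcript, with a pileup of 33 and a fold enrichment of 3.35 (2.34 to 4.67), at percentile 96.8 with a −log10 q of 5.87. Around its summit the minus strand reads:
Igf2bp1, chr11:95982657-95982956: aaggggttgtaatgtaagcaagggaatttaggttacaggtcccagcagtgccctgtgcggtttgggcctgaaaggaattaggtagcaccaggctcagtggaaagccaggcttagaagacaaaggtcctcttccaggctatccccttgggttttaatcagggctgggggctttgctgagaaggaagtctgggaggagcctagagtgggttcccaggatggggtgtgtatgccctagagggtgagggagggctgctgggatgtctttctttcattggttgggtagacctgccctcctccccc
Within 100 bp of its summit the observed to expected CpG ratio was 0.0678, below the median of 0.675 over the promoter peaks of the 9 genes in that list. Its fold enrichment was higher than at the 5′ end of Igf2bp1 in the same list, and its interval overlaps theirs.

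Igf2bp2 (chr16:22059009-22163299, minus strand) had 9 peaks labelled WT and 10 labelled Bmi1 KO. The strongest and widest peak of the set was labelled Bmi1 KO and lies over its 5′ end, 1448 bp long at chr16:22162274-22163721, with a pileup of 40 and a fold enrichment of 3.63 (2.62 to 4.91), at percentile 98.4 with a −log10 p of 12.4 and a −log10 q of 8.28. Its local background of 10.3 fragments was above the lowest of the list. In the list labelled WT the same stretch held 2 separate peaks, at chr16:22162492-22162820 with a fold enrichment of 2.59 (1.59 to 4.02) and at chr16:22163162-22163645 with 2.87 (1.80 to 4.35). Relative to the stronger of these the ratio was 1.27 (0.740 to 2.34). For the weaker one it was 1.40 (0.807 to 2.67), and both intervals include 1. The stretch printed here lies in the first intron under the peak labelled Bmi1 KO. It was taken outside annotated exons and leaves out the summit of that peak, at position 22163184. On the minus strand the stretch reads:
Igf2bp2, chr16:22162486-22162785: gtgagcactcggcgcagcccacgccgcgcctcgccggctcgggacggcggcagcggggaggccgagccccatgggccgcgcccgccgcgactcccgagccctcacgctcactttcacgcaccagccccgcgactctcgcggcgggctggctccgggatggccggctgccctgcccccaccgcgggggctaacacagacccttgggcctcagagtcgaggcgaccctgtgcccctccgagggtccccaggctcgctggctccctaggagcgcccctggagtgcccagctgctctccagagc
The rest of Igf2bp2 held peaks of lower percentile, all but 1 in each list without a partner. The strongest was labelled Bmi1 KO, at chr16:22087096-22087637 in an intron (2.92, interval 1.96 to 4.20, percentile 90.9), 1751 bp from an internal start site. A shared intronic peak about 15 kb into the gene had fold enrichments of 2.73 labelled WT and 2.21 labelled Bmi1 KO.

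Igf2bp3 (chr6:49085223-49214957, minus strand) had more peaks labelled WT, 10, than labelled Bmi1 KO, 8, and 4 in each list were shared. Its strongest site by fold enrichment lies about 3 kb upstream of the 5′ end, with summits 14 bp apart. The site is at chr6:49217492-49218264 in the list labelled WT and chr6:49217836-49218334 in the list labelled Bmi1 KO. Its pileup was 22 and 33, its fold enrichment 2.95 (1.90 to 4.40) and 3.56 (2.48 to 4.95), and its percentile 89.2 and 97.4. The ratio of 1.21 (0.692 to 2.20) has an interval that includes 1. The centre of the first lies 2921 bp from the 5′ end and that of the second 3128 bp, so this site is a promoter peak in the list labelled WT and falls just outside the window in the other. The GC box GGGCGG or its reverse complement was found 5 times in 300 bases of this site, with overlapping matches counted. Without overlapping matches the count was below 5 but at least 3. Of 300-base windows at promoter peak summits, counted without overlaps, 9.79% labelled WT and 9.67% labelled Bmi1 KO held 3 or more. On the minus strand the site reads, with GC boxes in capitals (neighbouring matches may overlap):
Igf2bp3, chr6:49217958-49218257: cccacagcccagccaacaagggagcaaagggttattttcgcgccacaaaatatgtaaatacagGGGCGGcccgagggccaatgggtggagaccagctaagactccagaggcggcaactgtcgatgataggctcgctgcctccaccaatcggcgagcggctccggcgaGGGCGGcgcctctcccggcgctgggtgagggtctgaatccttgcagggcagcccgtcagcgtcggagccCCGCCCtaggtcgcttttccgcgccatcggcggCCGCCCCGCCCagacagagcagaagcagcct
Closer to the gene, a peak labelled Bmi1 KO at chr6:49215073-49215805 had a fold enrichment of 2.88 (1.95 to 4.12), at percentile 92.0, and no partner. Without a partner too was an intronic promoter peak labelled WT at chr6:49096814-49097163, 2778 bp from an internal start site. Its fold enrichment was 2.89 (1.88 to 4.28), at percentile 89.3, the highest of the promoter peaks of Igf2bp3 in that list. Shared promoter peaks were found in an exon near the 5′ end, with fold enrichments of 2.08 and 2.45 and a ratio of 1.18 (0.627 to 2.36), and near an internal start site, with 2.18 and 2.10, a ratio of 0.962 (0.462 to 2.07).

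Trim71, the vertebrate homologue of the nematode timing gene lin-41, encodes a ubiquitin ligase and mRNA repressor. The gene (chr9:114507133-114564369, minus strand) was the only one of the 9 with no promoter peak labelled WT. The promoter peak labelled Bmi1 KO, at chr9:114562390-114562733, was among the weakest of that list (1.91, interval 1.17 to 2.96, percentile 2.77). It falls away when equal numbers of peaks are taken from each list. The strongest peak of the gene was labelled Bmi1 KO, in an intron 3139 bp from the TSS and so just outside the promoter window. It had a pileup of 31 and a fold enrichment of 3.22 (2.22 to 4.53), at percentile 95.8 with a −log10 q of 5.07, and no peak labelled WT overlapped it. On the minus strand it reads, with a GC box in capitals, a motif held by 37.7% of 300-base windows at promoter peak summits of that list:
Trim71, chr9:114561070-114561369: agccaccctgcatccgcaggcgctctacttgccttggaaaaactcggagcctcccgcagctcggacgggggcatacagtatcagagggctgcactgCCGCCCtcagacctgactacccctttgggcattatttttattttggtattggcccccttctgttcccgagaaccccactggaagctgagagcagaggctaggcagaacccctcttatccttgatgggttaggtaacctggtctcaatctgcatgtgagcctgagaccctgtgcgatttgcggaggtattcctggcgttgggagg
Of the 5 peaks labelled WT, the strongest was intronic (2.73, interval 1.70 to 4.19, percentile 70.8) and 8720 bp from the TSS. The lists shared 1 peak, at chr9:114525135-114525507 and chr9:114524937-114525186, with fold enrichments of 2.46 and 2.43. A weak peak labelled WT at the 3′ end, at chr9:114508863-114509081 (2.10), covers 2 of the 4 let-7 matches of the gene.

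Myc and Mycn encode transcription factors that drive growth and the cell cycle. Myc (chr15:61985391-61990374, plus strand) had 1 peak labelled WT and 3 labelled Bmi1 KO, and no overlap. The peaks labelled Bmi1 KO covered the 5′ end at chr15:61985075-61985743 (2.26, interval 1.56 to 3.17), the first intron at chr15:61986644-61986884 (2.24, 1.53 to 3.17) and 1004 bp at chr15:61987147-61988150 (2.14, 1.45 to 3.04). All 3 had a q-value under 0.05, and the first stood at percentile 73.5. The peak labelled WT, at chr15:61989408-61989647 in an exon near the 3′ end, had a fold enrichment of 2.13 (1.31 to 3.30), at percentile 14.8. It counts as a promoter peak only through an internal start site 2106 bp away, and lies 1257 bp past the nearest peak labelled Bmi1 KO.

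The local background at Myc was 12.8 to 13.2 fragments in the list labelled Bmi1 KO, above the lowest value of 8.04, and 7.92 at the peak labelled WT. The pileups of 29 to 31 fragments there were thus high while the folds were low. The stretch printed here lies upstream of the 5′ end, under the first peak labelled Bmi1 KO. It was taken outside annotated exons and leaves out the summit of that peak, at position 61985602. The windows set beside it are centred on summits and so are not alike. On the plus strand the stretch holds 3 GC boxes (capitals), beside 9.67% of 300-base windows at promoter peak summits of that list with 3 or more:
Myc, chr15:61985091-61985390: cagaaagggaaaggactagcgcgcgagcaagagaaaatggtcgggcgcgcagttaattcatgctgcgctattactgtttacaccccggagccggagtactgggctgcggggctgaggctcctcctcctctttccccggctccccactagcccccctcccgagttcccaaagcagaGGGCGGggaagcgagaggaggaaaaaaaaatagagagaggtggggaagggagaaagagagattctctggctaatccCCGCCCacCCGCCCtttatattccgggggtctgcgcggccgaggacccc

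Mycn (chr12:12936093-12941914, minus strand) had 1 peak in each list, 1417 bp apart. The peak labelled WT, at chr12:12939919-12940137, had a fold enrichment of 2.40 (1.56 to 3.55), at percentile 62.7. The peak labelled Bmi1 KO, at chr12:12941555-12941854 by the 5′ end, had 2.28 (1.56 to 3.22), at percentile 73.2. As at Myc, the local background was raised, to 9.0 fragments labelled WT and 12.6 labelled Bmi1 KO. At both genes the peak nearest the 5′ end was found in the list labelled Bmi1 KO only, the list with the higher background.

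None of the 5 genes with a shared promoter pair passed the size used here to call a difference in fold enrichment. That size was a ratio at least 1.5 times above or below the median ratio of 1.03 over all shared promoter peaks. Hmga2, Trim71, Myc and Mycn had no such pair and could not be called. Of all genes with shared promoter peaks, 2.74% passed it upwards and 2.03% downwards. At such shares, none among 5 genes says little about them. Taking for each gene the pair with the strongest peak labelled WT, the 5 ratios ran from 0.843 at Lin28b to 1.27 at Igf2bp2. Over all 8 shared promoter pairs of these genes they ran from 0.830 at Igf2bp1 to 1.40 at Igf2bp2. Over all 15 overlapping pairs of the 9 genes, promoters and others, each interval of the ratio included 1. With pileups of 15 to 40 fragments, the bounds of these intervals ran down to 0.406 and up to 2.95, so a difference inside such an interval was not detectable at this depth.

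**Figure D4:**
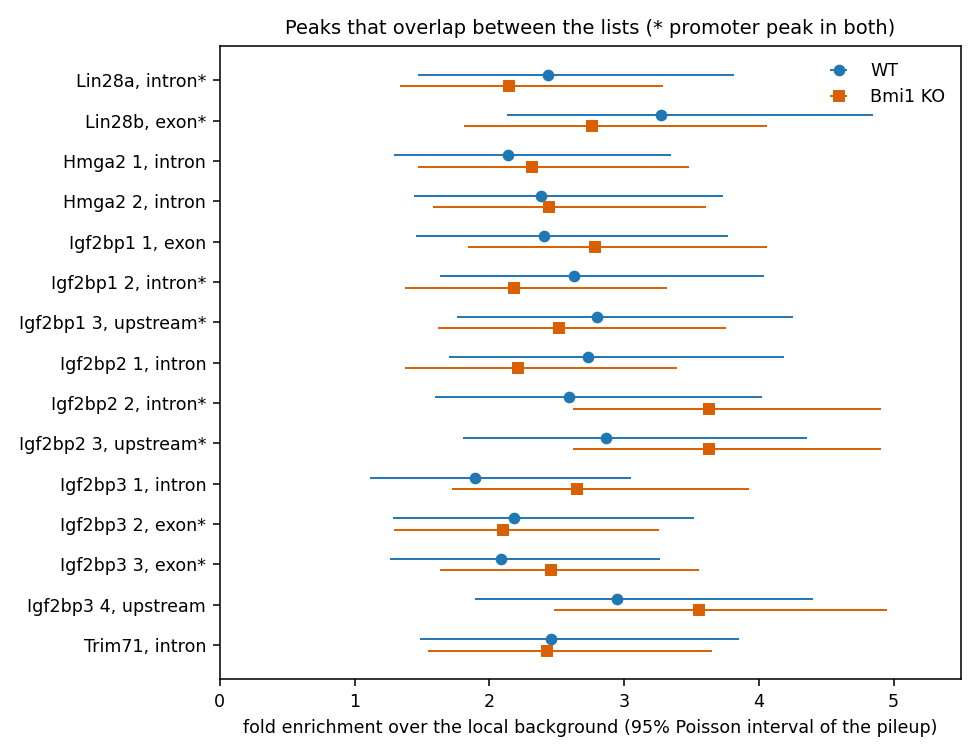
Fold enrichment of the 15 pairs of peaks that overlap between the list labelled WT (blue circles) and the list labelled Bmi1 KO (orange squares), with 95% Poisson intervals of the pileup. An asterisk marks pairs that are promoter peaks in both lists, and the intervals of the pair overlap in every case.

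The promoter peaks of these genes were rich in CpG. Within 100 bp of the summit, the median observed to expected CpG ratio was 0.660 in the 20 peaks labelled WT and 0.675 in the 25 labelled Bmi1 KO, beside 0.432 and 0.439 over all promoter peaks. Median GC content was 60.4% and 62.7%, beside 58.7% in both lists. The GC box was found in 7 of 20 and 11 of 25, beside 30.1% and 30.4% of all promoter peaks. The highest GC content of the set, 80.6%, was at the Igf2bp2 promoter peak labelled Bmi1 KO.

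Promoter peaks were also counted at partners of these genes, beside the 53% of all protein-coding genes with one in both lists. All 12 genes of microRNA processing, among them Drosha and Dicer1, which cut microRNA precursors, and Tut4 and Dis3l2, which tail and degrade pre-let-7 with LIN28, had a promoter peak in both lists. The strongest one ranked higher in the list labelled Bmi1 KO in 8 of the 12, beside 67.5% of all genes. Of the 12 genes of the MYC, MAX and MXD network 11 had one in both, and Mlx had one labelled Bmi1 KO only (percentile 34.7). Of 15 growth genes known as targets of let-7 or IGF2BP 14 had one in both, and Hmga1, the paralogue of Hmga2, had one labelled Bmi1 KO only (percentile 3.15).

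For the let-7 genes, within 3 kb of the annotated hairpin ends, 2 of 12 (Mirlet7e and Mirlet7i) had a peak in both lists, near the 17.4% of all 2202 annotated microRNA genes. Of the others, 3 (Mirlet7a-2, Mirlet7b and Mirlet7c-2) had one in the list labelled Bmi1 KO only, 1 (Mirlet7g) in the list labelled WT only and 6 in neither. The share of all microRNA genes with a peak in 1 list only was not computed. The list labelled Bmi1 KO is 1.29 times as long, so these counts are not read as a difference. Mirlet7b and Mirlet7c-2 are neighbours and share 1 peak, at percentile 76.2. The annotated ends are those of the hairpins, and the starts of the longer primary transcripts were not used here.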

How the data were processed

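ATAC-seq was measured in 1 pooled library per genotype, and GEO's labels gave the genotype of each list. After read trimming and alignment by BWA-MEM, the authors ran MACS2 on each library, and the submitters' processing notes also name FastQC, HOMER and the build mm10. MACS2 options are not given in the sources used here. Each deposited peak has a fold enrichment, the ratio of pileup to local background at the summit with 1 added to both. The deposited −log10 p and −log10 q rank it within its own library, and the deposited score was not used. Deposited positions were used as given.

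Of 77826 and 100668 deposited peaks, 230 and 237 outside chromosomes 1 to 19, X and Y were left out. Fold enrichment and −log10 p were solved for the whole pileup and the background at each summit (within 0.001 for 100% of peaks), a step tested on simulated data. Read totals are unknown. Annotation was GENCODE vM21, sequences came from RefSeq (GRCm38) and GENCODE. Python 3.11.15, pandas 2.3.3, scipy 1.17.1, pysam 0.24.0, samtools 1.23.1 and matplotlib 3.10.9 were used. Intervals are exact (Poisson, binomial or conditional binomial, 95%) and cover counting error only. With 1 library per genotype no test and no p-value between genotypes was made.

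All 9 members are named with their counts of peaks. At Igf2bp1, Igf2bp2 and Igf2bp3 not every promoter peak and not every strongest other peak is given. Of the gene lists, genes with a promoter peak in 1 list only are named. Drosha, Dicer1, Dis3l2, Tut4, Mirlet7e and Mirlet7i were named after their values were seen. Members and lists were chosen with earlier results of these data known. Alternatives were stricter thresholds, equal list lengths, other overlaps, windows and annotation, and other scalings of fold enrichment.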

Additional observations from a re-analysis of the deposited data

How the results depend on the processing

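At a q-value under 0.05, the peaks of the 9 genes fell to 20 labelled WT and 31 labelled Bmi1 KO, those labelled WT without an overlap to 15, and the genes with a promoter peak in both lists to 5. With only peaks of −log10 q 5 or more, the counts were 0 labelled WT and 4 labelled Bmi1 KO, without an overlap 0 and 4, and 0 genes had a promoter peak in both lists. With 50 kb to both sides of the genes, the counts were 76 and 94 peaks, of which 51 and 69 were without an overlap. These changes follow from the construction of the alternatives, which keep fewer peaks or take in more sequence. Of the 63 values computed under alternatives, the other 50 stayed within 1.5 times the main count or within the interval of the main value. Some of these could not change. The overlap rule does not enter the counts of peaks or of genes with a promoter peak, and equal list lengths leave the list labelled WT as it is. The intervals of the ratios are wide, 0.740 to 2.34 at Igf2bp2, so lying within one is a weak check. With equal list lengths the peaks labelled Bmi1 KO fell to 35, below the 41 labelled WT, so the order of these counts depends on the lengths of the lists. Genes with a promoter peak in both lists were 7 then, and 6 with the RefSeq annotation. Scaling the pileup by the lowest background of each list gave a median promoter ratio of 0.879 in place of 0.899, and a ratio at Igf2bp2 of 1.57, which is 1.48 times the median of 1.06 under that scaling and so below 1.5. With 1 library per genotype and pileups of at most 40 fragments, depth limits every comparison of single peaks. No paired analysis was possible because the result comes from no test.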
